A study of Danio rerio with 10 samples.

Results

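The proteasome genes of the zebrafish testis are described here across 10 arrays. They were chosen by name: every gene of the array's annotation whose single symbol begins with psma to psmg followed by a digit, leaving out psmc3ip, which is a recombination factor. This gave 53 of the 19260 genes measured, each read from the probe with the highest mean over the arrays. They divide into 9 alpha and 7 constitutive beta subunits of the 20S core, 6 immune-type beta subunits, 7 ATPases and 12 non-ATPase subunits of the 19S cap, 4 activators and their partners, the inhibitor PI31 and 7 assembly chaperones. The probes of psme3 and psma2a carry several symbols, and psma7, psmd7, psme4a and psmb11b had no probe with a single symbol, so these 6 genes were not analysed here. A probe that carries the symbols psmb13a, psmb8a and tap2a together was not used, and each of these genes was read from another probe.

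The arrays hold testis RNA of adult male zebrafish of the AB strain, wild type, at 1 year of age. The TCDD group (5 males) had been exposed to waterborne TCDD, the dioxin 2,3,7,8-tetrachlorodibenzo-p-dioxin, at 50 pg/ml, and the DMSO group (5 males) to the solvent alone. Fish were exposed for 1 h at 3 weeks after fertilization and for 1 h again at 7 weeks, while the gonads differentiate and mature, so that the comparison asks what remains in the adult testis after a brief juvenile exposure. Whole testis was profiled, and a bulk sample cannot tell fewer cells of a type from less RNA per cell.

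The proteasome degrades proteins that carry ubiquitin chains. Its 20S core is a barrel of alpha rings, which gate the entrance, and beta rings, which hold the catalytic sites. The 19S cap binds ubiquitin, unfolds the substrate with its ATPase ring and feeds it into the core. In vertebrates immune-type beta subunits can replace the constitutive catalytic ones, are induced by interferon in mammals, and shape the peptides presented to T cells. PA28 and PA200 are activators that open the core without the 19S cap. In mammals the male germ line uses a variant core with the alpha subunit PSMA8 in place of PSMA7, often together with PA200, and meiosis and spermatid maturation depend on it. The roles given for single genes here are those of the yeast or mammalian proteins of the same name.

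Values are on the deposited log2 scale, and differences are TCDD minus DMSO on that scale. A probe's brightness depends on its sequence, so no gene's level was set against another gene's. Array medians lay between 6.71 and 6.87, and the correlation between pairs of arrays over all probes lay between 0.900 and 0.977. DMSO 1 was least like the rest, correlating with the other arrays at 0.918 on average, and next came TCDD 2 at 0.952, while the other 8 lay between 0.954 and 0.961. Germ-cell markers of meiosis (6 genes, among them sycp1, sycp2 and sycp3) averaged 10.08 to 11.00 over the TCDD arrays, 10.41 to 11.16 over DMSO 2 to DMSO 5 and 7.98 in DMSO 1. Exocrine pancreas markers (7 genes) averaged 11.87 in TCDD 2 and 12.91 in DMSO 1, the highest values of their groups. Intestine markers (5 genes) averaged 10.13 in TCDD 2, 10.14 in TCDD 3 and 10.43 in DMSO 1, and between 6.48 and 6.91 in the other 7 arrays. Differences are over all 10 arrays unless given as without DMSO 1, and both are given where leaving out that array turned the sign or moved the difference of a named proteasome gene by over 1.5 times. The labels number the samples as biological replicates, and the number of arrays limits the precision.

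No proteasome gene passed the test between TCDD and DMSO testes. Of the 53 genes 0 passed an adjusted p under 0.05 in limma, as did 0 of all 19260 genes (0.0%), and the smallest adjusted p was 1.0 among the proteasome genes and 0.996 among all genes. At an unadjusted p under 0.05 the count was 0 of 53, beside 478 of all genes (2.48%). The groups overlapped for all 53 genes, while 95 of all genes (0.493%) had groups without overlap. The difference was above 0 for 32 genes and below 0 for 21, which is 60.4% higher beside 54.6% of all genes. The median difference was 0.03 beside 0.02 over all genes, and the values ran from -0.26 to 0.38.

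For the probe used, and each gene taken alone, the intervals bound what these arrays could have missed. Other probes can give other bounds: with the mean of its probes the interval of psma6l ran from -0.86 to -0.03. All 53 intervals at 95% confidence included 0, and all 53 lay within a 2-fold difference in either direction. For 36 genes the interval lay within 1.5-fold. The widest bounds were -0.73 for psmc1a and 0.97 for psmb5, and the median width of an interval was 0.84. Differences within these intervals are compatible with the arrays.

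**Figure D1:**
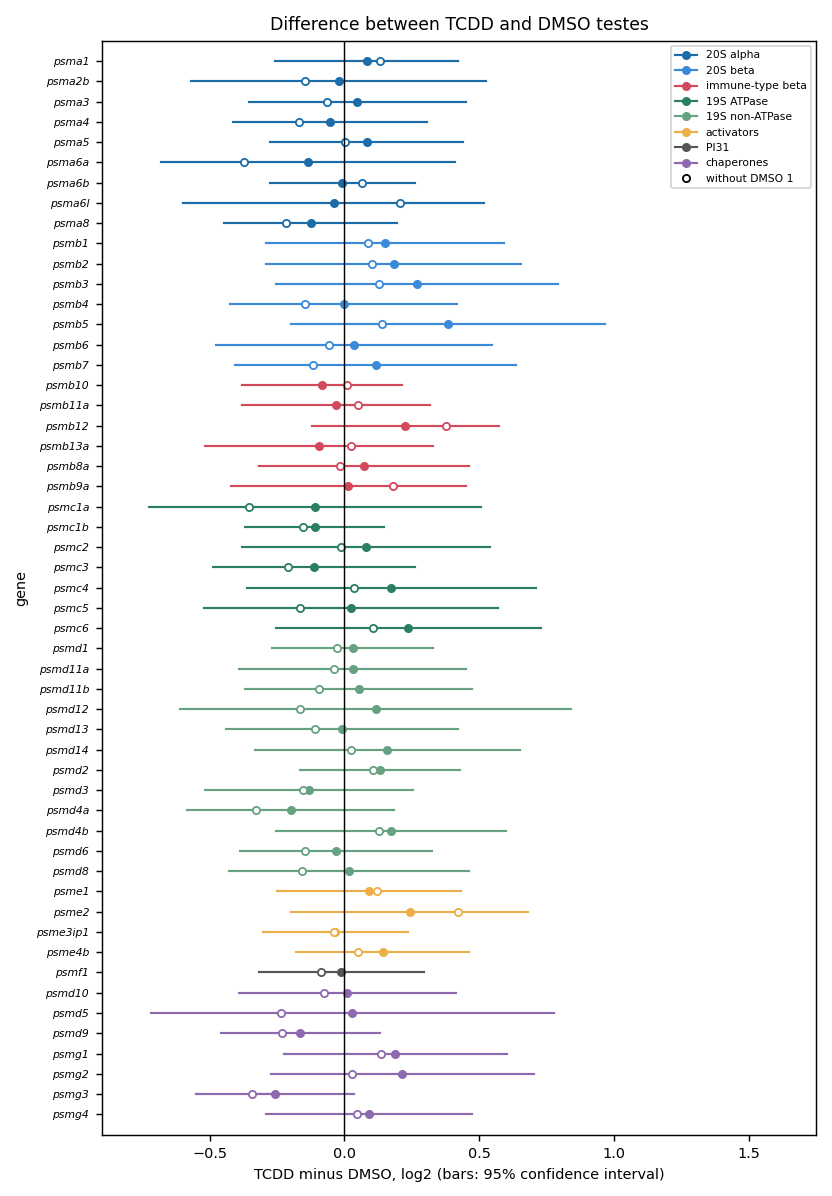
Difference between TCDD and DMSO testes for the 53 proteasome genes, ordered by role, on the log2 scale. Filled circles are the difference over 5 TCDD and 5 DMSO arrays with its 95% confidence interval as a bar, and open circles are the difference without the DMSO 1 array. All 53 bars cross 0, and the filled circles run from -0.26 to 0.38.

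Alpha subunits form the outer rings of the core. Of the 9 measured, 3 were higher and 6 lower in TCDD testes, with a median difference of -0.02, and 0 passed the test. The testis-type subunit psma8 read 10.16, 9.64, 10.07, 9.72 and 9.96 in TCDD testes, against 9.67, 10.05, 10.21, 10.16 and 10.08 in DMSO testes. TCDD 2, DMSO 1 and TCDD 4 were its 3 lowest arrays, and the groups overlapped. Its difference was -0.13 (95% interval -0.45 to 0.20), and without DMSO 1 it was -0.22 (-0.50 to 0.07).

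psma6a, a copy of the alpha-ring subunit that neighbours the gate, read 9.03, 8.63, 9.01, 8.69 and 9.17 in TCDD testes, against 8.10, 9.02, 9.22, 9.35 and 9.51 in DMSO testes. Its DMSO group held both the lowest and the highest array, and the difference was -0.14 (-0.68 to 0.41), or -0.37 without DMSO 1. The related psma6l ran the other way in DMSO 1: it read 9.63, 9.43, 9.54, 9.89 and 9.30 in TCDD testes, against 10.58, 9.42, 9.51, 9.45 and 9.03 in DMSO testes, a difference of -0.04 (-0.60 to 0.52), or 0.20 without DMSO 1. DMSO 1 was thus the highest array of psma6l on the probe used, and the lowest of psma6a. The other 6 alpha genes (psma1, psma2b, psma3, psma4, psma5 and psma6b) had differences between -0.06 and 0.08, and without DMSO 1 between -0.17 and 0.13.

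Of the constitutive beta subunits 6 of 7 were higher in TCDD testes, with a median of 0.15, and 0 passed the test. psmb5 carries the chymotrypsin-like site that proteasome inhibitor drugs bind. It read 10.70, 10.33, 10.58, 10.89 and 10.61 in TCDD testes, against 9.26, 10.12, 10.83, 10.67 and 10.32 in DMSO testes. All 5 TCDD arrays lay above the DMSO mean, but 2 of the DMSO arrays lay above at least 3 of the TCDD arrays. Its mean was 10.62 ± 0.20 in TCDD testes and 10.24 ± 0.62 in DMSO testes (SD, n = 5 each), the difference 0.38 (-0.20 to 0.97), and without DMSO 1 the difference was 0.14 (-0.23 to 0.51).

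psmb7, with the trypsin-like site, read 9.62, 9.13, 9.56, 9.24 and 9.46 in TCDD testes, against 8.35, 9.39, 9.58, 9.50 and 9.61 in DMSO testes. DMSO 1 was far below the other 9 arrays, which overlapped. The difference was 0.12 (-0.41 to 0.64), and without DMSO 1 it was -0.12. psmb6, with the caspase-like site, read 10.54, 9.46, 10.27, 10.08 and 9.94 in TCDD testes, against 9.65, 9.78, 10.57, 10.27 and 9.84 in DMSO testes, a difference of 0.04 (-0.47 to 0.55), or -0.06 without DMSO 1. TCDD 2 was its lowest array.

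psmb3, a structural beta subunit, read 11.23, 10.24, 11.12, 10.74 and 10.90 in TCDD testes, against 10.01, 10.38, 11.09, 10.87 and 10.54 in DMSO testes. Its difference was 0.27 (-0.25 to 0.79), or 0.13 without DMSO 1, and the lowest array of each group, TCDD 2 and DMSO 1, stood below the other 8. The structural subunits psmb1, psmb2 and psmb4 had differences of 0.15, 0.18 and -0.0031, and without DMSO 1 of 0.09, 0.10 and -0.14. Without DMSO 1 the median of the 7 constitutive beta genes was 0.09, and 4 of 7 were above 0.

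The immune-type beta subunits divided evenly, with 3 of 6 higher in TCDD testes, a median of -0.01 and 0 past the test. psmb8a, psmb9a, psmb12 and psmb13a lie next to each other in the RefSeq gene order of zebrafish (assembly GRCz12tu), between the class I gene mhc1uba and the peptide transporter gene tap2a. psmb8a and psmb9a correspond to the mammalian interferon-induced subunits LMP7 and LMP2, and psmb10 to the remaining one. psmb12 and psmb13a are fish genes that RefSeq lists with the synonyms beta1t and beta2ta, and psmb11a is related to the mammalian thymus subunit.

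psmb12 read 7.74, 7.77, 7.71, 7.72 and 7.76 in TCDD testes, against 8.12, 7.29, 7.44, 7.43 and 7.30 in DMSO testes. The 5 TCDD arrays lay within less than 0.1 of each other, above 4 DMSO arrays and below DMSO 1. The mean was 7.74 ± 0.02 in TCDD testes and 7.52 ± 0.34 in DMSO testes (SD, n = 5 each), and the difference was 0.22 (-0.12 to 0.57), or 0.37 without DMSO 1. psmb9a read 7.80, 7.32, 7.67, 7.85 and 7.32 in TCDD testes, against 8.24, 7.36, 7.58, 7.43 and 7.28 in DMSO testes. DMSO 1 was again highest, the rest overlapped, and the difference was 0.01 (-0.42 to 0.45), or 0.18 without DMSO 1. psmb10 read 8.83, 9.07, 9.07, 9.08 and 8.75 in TCDD testes, against 9.42, 8.82, 9.00, 9.02 and 8.97 in DMSO testes, a difference of -0.08 (-0.38 to 0.21), or 0.01 without DMSO 1, its highest array.

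psmb8a read 5.40, 5.07, 5.38, 5.87 and 5.26 in TCDD testes, against 4.97, 5.47, 5.26, 5.69 and 5.22 in DMSO testes. It was the exception among the 6 genes, lowest in DMSO 1, and its difference was 0.07 (-0.32 to 0.46), or -0.02 without that array. psmb13a read 6.08, 6.28, 6.20, 6.14 and 5.89 in TCDD testes, against 6.69, 6.52, 5.65, 6.26 and 5.94 in DMSO testes, a difference of -0.09, or 0.03 without DMSO 1. psmb11a differed by -0.03, or 0.05 without DMSO 1. The probes of psmb8a, psmb11a and psmb13a ranked at the 23.9, 25.1 and 37.6 percentile of all probes by mean signal, the only members below the middle of the array, while the other 50 ranked at 64.3 or above.

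**Figure D2:**
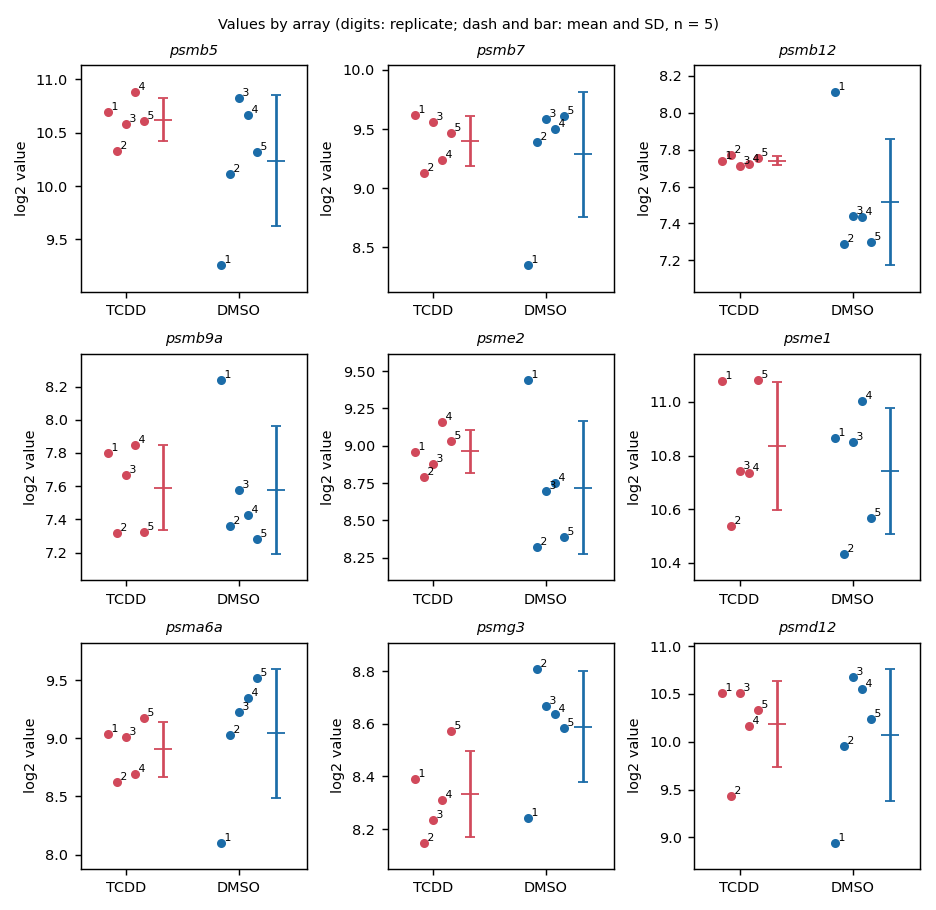
Log2 values of 9 proteasome genes in each array, TCDD left and DMSO right in each panel, with the mean and SD of each group (n = 5). DMSO 1 is the lowest point for psmb5, psmb7, psma6a and psmd12 and the highest for psmb12, psmb9a and psme2, and the groups overlap in every panel.

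The ATPases of the 19S cap were higher in TCDD testes for 4 of 7 genes, with a median of 0.02. psmc6 read 9.80, 8.93, 9.54, 9.28 and 9.31 in TCDD testes, against 8.61, 8.90, 9.69, 9.41 and 9.07 in DMSO testes, a difference of 0.24 (-0.26 to 0.73), or 0.10 without DMSO 1. psmc1a and psmc1b are copies of the same ATPase and differed in spread. psmc1a read 8.34, 7.64, 8.34, 7.77 and 8.28 in TCDD testes, against 7.21, 8.13, 8.82, 8.46 and 8.30 in DMSO testes. psmc1b read 8.69, 8.41, 8.66, 8.38 and 8.54 in TCDD testes, against 8.47, 8.55, 8.78, 8.83 and 8.58 in DMSO testes. Both differences were -0.11, but the SD over the 10 arrays was 0.46 for psmc1a and 0.15 for psmc1b. Without DMSO 1 psmc1a differed by -0.35 and psmc1b by -0.15. With all arrays the interval of psmc1b ran from -0.37 to 0.15. The other 4 ATPases, psmc2 to psmc5, had differences between -0.11 and 0.17, and without DMSO 1 between -0.21 and 0.04.

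Of the 12 non-ATPase subunits 8 were higher in TCDD testes, with a median of 0.03, and 0 passed the test. psmd4a, a ubiquitin receptor of the cap, read 8.17, 7.83, 8.12, 7.84 and 8.13 in TCDD testes, against 7.71, 8.01, 8.47, 8.56 and 8.35 in DMSO testes. All 5 TCDD arrays lay below the DMSO mean, with a difference of -0.20 (-0.58 to 0.18), or -0.33 without DMSO 1. Its copy psmd4b differed by 0.17 (-0.25 to 0.60). psmd2, a scaffold on which ubiquitin receptors dock, read 12.00, 11.40, 11.76, 11.71 and 11.73 in TCDD testes, against 11.48, 11.46, 11.87, 11.62 and 11.50 in DMSO testes, a difference of 0.13 (-0.17 to 0.43).

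psmd12, a subunit of the lid that surrounds the deubiquitinase, varied most among the core and cap subunits, with an SD of 0.55 over the 10 arrays. It read 10.51, 9.43, 10.51, 10.16 and 10.33 in TCDD testes, against 8.94, 9.96, 10.68, 10.55 and 10.24 in DMSO testes. Its 2 lowest arrays were DMSO 1 and TCDD 2, and the difference was 0.12 (-0.61 to 0.84), or -0.17 without DMSO 1. The deubiquitinase itself, psmd14, differed by 0.16 (-0.33 to 0.65), or 0.02 without DMSO 1. The other 7 non-ATPase genes, psmd1, psmd3, psmd6, psmd8, psmd11a, psmd11b and psmd13, differed by -0.13 to 0.05, and without DMSO 1 by -0.16 to -0.03.

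Activators were higher in TCDD testes for 3 of 4 genes, with a median of 0.12. psme1 and psme2 encode the alpha and beta subunits of PA28, which mammals induce together with the immune-type core. psme2 read 8.96, 8.79, 8.88, 9.16 and 9.03 in TCDD testes, against 9.44, 8.32, 8.70, 8.75 and 8.39 in DMSO testes. The 5 TCDD arrays lay above 4 DMSO arrays and below DMSO 1, the same arrangement as in psmb12. The mean was 8.96 ± 0.14 in TCDD testes and 8.72 ± 0.44 in DMSO testes (SD, n = 5 each), and the difference was 0.24 (-0.20 to 0.68), or 0.42 without DMSO 1. psme1 read 11.08, 10.54, 10.74, 10.73 and 11.08 in TCDD testes, against 10.86, 10.43, 10.85, 11.00 and 10.57 in DMSO testes, a difference of 0.09 (-0.25 to 0.43) with groups that overlapped widely.

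psme4b encodes PA200, which in mammals takes part in histone removal in spermatids. It read 9.41, 9.18, 9.51, 9.36 and 9.50 in TCDD testes, against 8.89, 9.09, 9.55, 9.48 and 9.26 in DMSO testes, a difference of 0.14 (-0.18 to 0.46), or 0.05 without DMSO 1. psme3ip1, a partner of the nuclear activator PA28 gamma, differed by -0.03 (-0.30 to 0.24). psmf1 encodes PI31, an inhibitor of the isolated core in vitro. It read 8.83, 8.58, 8.83, 8.73 and 9.08 in TCDD testes, against 8.52, 8.70, 9.02, 9.04 and 8.83 in DMSO testes, a difference of -0.01 (-0.32 to 0.29), or -0.09 without DMSO 1.

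Assembly chaperones hold unfinished rings and leave before the particle is complete. Of the 7 measured, 5 were higher in TCDD testes and the median was 0.03. psmg3, a chaperone of the alpha ring, had the smallest p of all 53 genes before adjustment. It read 8.39, 8.15, 8.23, 8.31 and 8.57 in TCDD testes, against 8.24, 8.81, 8.67, 8.64 and 8.58 in DMSO testes. All 5 TCDD arrays lay below 4 of the DMSO arrays, and DMSO 1 lay among them. The difference was -0.26 (-0.55 to 0.04).

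psmd5 and psmd9 escort ATPases of the cap base. psmd9 read 7.71, 7.16, 7.42, 7.29 and 7.49 in TCDD testes, against 7.30, 7.72, 7.59, 7.58 and 7.70 in DMSO testes, a difference of -0.16 (-0.46 to 0.13). psmd5 read 8.90, 7.96, 8.66, 8.02 and 8.76 in TCDD testes, against 7.37, 8.13, 9.19, 8.99 and 8.46 in DMSO testes, a difference of 0.03 (-0.72 to 0.78), or -0.24 without DMSO 1. Its SD of 0.57 over the 10 arrays was the widest of all 53 genes. The other 4 chaperones, psmg1, psmg2, psmg4 and psmd10, differed by 0.19, 0.21, 0.09 and 0.01, and without DMSO 1 by 0.14, 0.03, 0.05 and -0.08.

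The proteasome genes varied from fish to fish in both groups, and most of them moved together. The median SD over the 10 arrays was 0.30 for the 53 genes (range 0.15 to 0.57), beside 0.28 over all genes. By role the median SD was 0.24 for alpha, 0.37 for constitutive beta, 0.26 for immune-type beta, 0.38 for ATPases, 0.30 for non-ATPase subunits, 0.22 for activators and 0.28 for chaperones. The steadiest were psmc1b, psma6b and psme3ip1, each with an SD of 0.15, at the 9.3, 9.4 and 9.7 percentile of all genes.

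Most of the 35 constitutive core and cap genes, with the testis-type psma8 counted among them, moved together over the arrays. Relative to each gene's own mean, their median deviation in the TCDD arrays 1 to 5 was 0.28, -0.34, 0.15, -0.08 and 0.06, and in the DMSO arrays 1 to 5 it was -0.41, -0.19, 0.38, 0.20 and -0.03. In TCDD 1, 34 of 35 genes lay above their own mean (12173 of all 19260 genes), and in TCDD 2 only psma6b and psmd1 (6754 of all genes). DMSO 1 had 3 of 35 above (9209 of all genes) and DMSO 3 had 33 of 35 (12333 of all genes). The median deviation over all genes was 0.10 in TCDD 1, -0.10 in TCDD 2, -0.03 in DMSO 1 and 0.10 in DMSO 3. Both groups thus held arrays with high and with low constitutive proteasome RNA. Of all 53 genes 24 (45.3%) had their lowest value in DMSO 1, beside 28.8% of all genes, and 16 (30.2%) in TCDD 2, beside 12.5% of all genes.

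**Figure D3:**
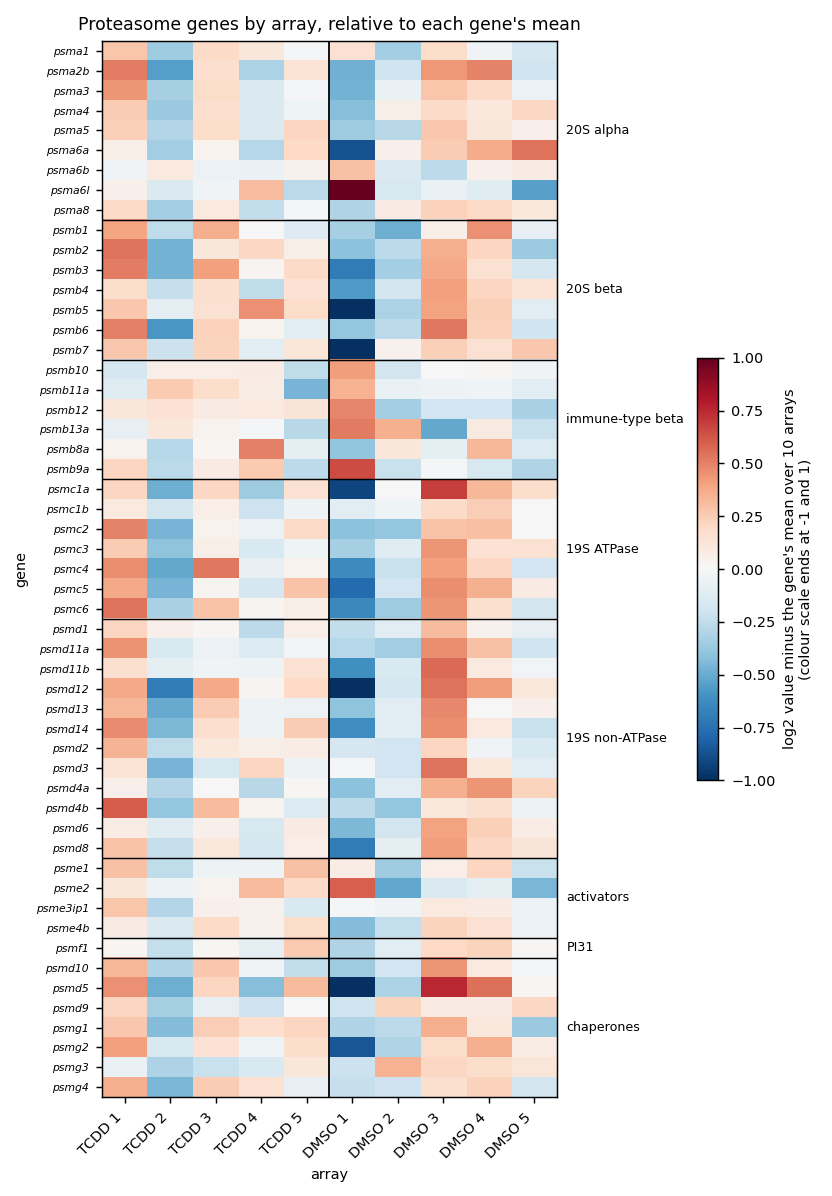
Deviation of each proteasome gene (53 rows, ordered by role) from its own mean over the 10 arrays (columns, 5 TCDD then 5 DMSO) on the log2 scale, with the colour scale ending at 1 in either direction. Most core and cap genes are low in TCDD 2 and DMSO 1 and high in TCDD 1 and DMSO 3, whereas 5 of the 6 immune-type genes are highest in DMSO 1.

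At the median the immune-type subunits did not follow the constitutive ones. Their median deviation in the TCDD arrays 1 to 5 was -0.02, 0.09, 0.08, 0.09 and -0.26, and in the DMSO arrays 1 to 5 it was 0.45, -0.12, -0.08, -0.02 and -0.18. In DMSO 1 the immune-type genes stood 0.52 above the other 8 arrays (TCDD 2 set aside) at the median, and the constitutive core and cap genes 0.52 below, beside -0.04 over all genes. There 25 of the 35 constitutive genes (71.4%) lay below all 8 others, beside 32.7% of all genes. The 2 that lay above all 8 were psma6b and psma6l. Of the 6 immune-type genes 5 lay above all 8, beside 25.2% of all genes. The remaining gene, psmb8a, lay below all 8 in DMSO 1, as most constitutive genes did. The probes of psmb8a, psmb11a and psmb13a were dim. With DMSO 1 set aside, TCDD 2 lay below the same 8 for 24 of the 35 constitutive genes (68.6%, beside 27.2% of all genes). Its immune-type genes stood 0.16 above these 8 at the median, but they were divided. Of the 6, psmb11a and psmb12 lay above all 8 (33.3%, beside 12.6% of all genes) and psmb8a lay below all 8. The differences of psmb8a and psmb9a from the mean of these 8 were -0.37 and -0.22. Setting aside the other low array raised both counts of constitutive genes. With no array set aside, DMSO 1 was lowest for 18 of the 35 (51.4%, beside 28.8% of all genes). TCDD 2 was then lowest for 11 of the 35 (31.4%, beside 12.5% of all genes).

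Markers of spermatids and meiosis were also low in TCDD 2 and DMSO 1, the arrays with the lowest constitutive proteasome genes. Within each group Sertoli and Leydig markers were on average lowest in these arrays too. Of the 7 spermatogonia and germ line markers 4 were lowest in DMSO 1, but gfra1a (6.50) and gfra1b (7.58) were highest there. The mean of the spermatid list (8 of 10 measured) was 10.77, 9.99, 10.68, 10.30 and 10.75 in TCDD testes, against 7.74, 10.37, 10.71, 10.93 and 10.88 in DMSO testes. Meiosis markers (6 of 8 measured) read 11.00, 10.08, 10.80, 10.31 and 10.74 in TCDD testes, against 7.98, 10.41, 11.16, 10.98 and 10.89 in DMSO testes. TCDD 2 was the lowest TCDD array for both lists and DMSO 1 the lowest of all. Sertoli markers averaged 10.37 in TCDD 2 and 9.68 in DMSO 1, and Leydig markers 9.75 and 8.03. At the median, meiosis markers deviated from their own means by -2.51 in DMSO 1 and -0.36 in TCDD 2. The constitutive proteasome genes deviated by -0.41 and -0.34. Macrophage and granulocyte markers (8 of 10) were highest in TCDD 2 at 8.51 and DMSO 1 at 8.37, while the remaining TCDD arrays read 7.33 to 7.75 and the remaining DMSO arrays 7.36 to 7.82. In TCDD 2 this rested on mpx (10.83) and ptprc (9.80): the other 6 genes averaged 7.91 in TCDD 2, 7.88 in TCDD 4 and 8.20 in DMSO 1. Lymphocyte markers (8 of 10) ran from 6.75 to 7.21 in TCDD testes and from 6.60 to 7.45 in DMSO testes, with TCDD 2 and DMSO 1 at the top of their groups.

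Markers of other cell types of the testis and its surroundings are given as the mean of each list. Sertoli markers (6 of 6) averaged 10.37 to 11.68 in TCDD testes and 9.68 to 11.02 in DMSO testes (10.52 to 11.02 without DMSO 1), Leydig markers (6 of 6) 9.75 to 10.44 in TCDD testes and 8.03 to 10.16 in DMSO testes (9.53 to 10.16 without DMSO 1), and hepatocyte markers (7 of 8) 7.51 to 10.82 in TCDD testes (7.51 to 8.64 without TCDD 5) and 6.98 to 7.96 in DMSO testes. Pancreas markers (7 of 8) ran from 8.30 to 11.87 in TCDD testes and from 8.80 to 12.91 in DMSO testes (8.80 to 9.60 without DMSO 1). Markers of the antigen presentation list (6 of 7) ran from 7.76 to 9.06 in TCDD testes and from 7.72 to 8.67 in DMSO testes. Spermatogonia and germ line markers (7 of 8) ran from 9.51 to 10.10 in TCDD testes and from 9.21 to 10.20 in DMSO testes, oocyte markers (6 of 6) from 6.62 to 7.83 in TCDD testes and from 6.68 to 7.06 in DMSO testes, and skeletal muscle markers (7 of 7) from 6.32 to 6.65 in TCDD testes and from 6.72 to 7.39 in DMSO testes. No probe of these lists can be said to be at 0, since every probe on an array gives some signal. The part of these cell types in the proteasome values was not tested.

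**Figure D4:**
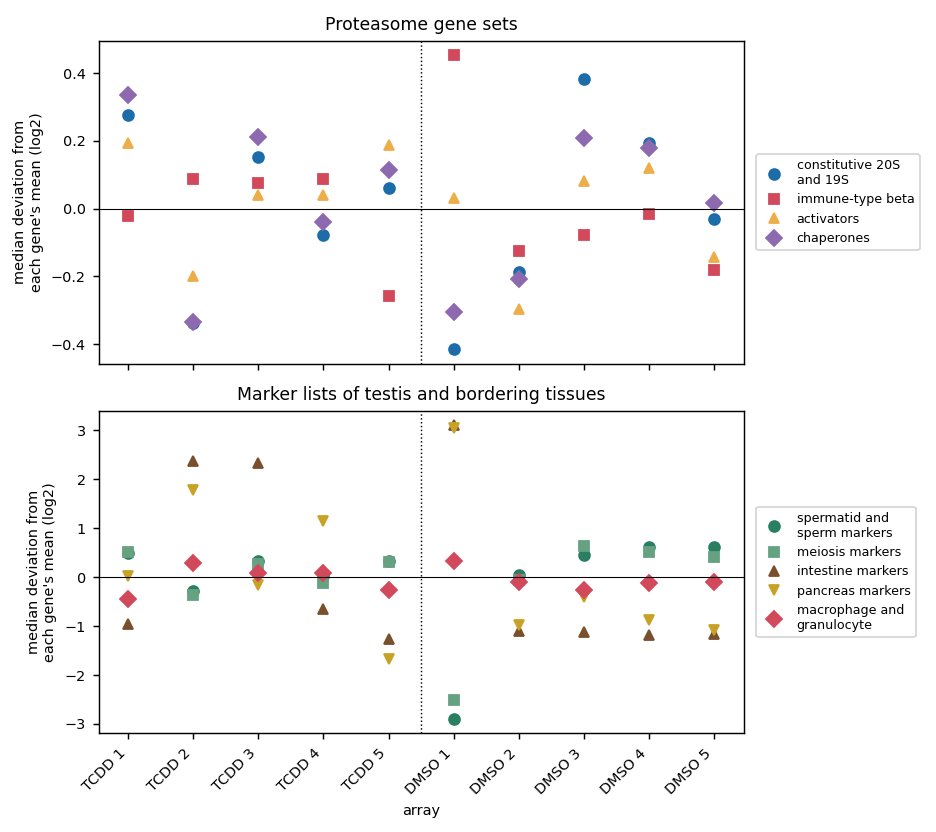
Median deviation from each gene's own mean in each array (5 TCDD then 5 DMSO, log2 scale) for constitutive core and cap genes, immune-type beta genes, activators and chaperones (top) and for marker lists of other cell types (bottom). Constitutive genes are lowest in DMSO 1 at -0.41 and TCDD 2 at -0.34, and immune-type genes are highest in DMSO 1 at 0.45.

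Without DMSO 1 the comparison of 5 TCDD with 4 DMSO arrays still called 0 of 53 genes in limma (0.0% of all genes), with a smallest adjusted p of 0.72 among them and 0.393 among all genes. At an unadjusted p under 0.05 there were 5 of 53 (9.43%), beside 1280 of all genes (6.65%), and for 3 of 53 (5.66%) the groups did not overlap, beside 2.51% of all genes. Both shares lay above those of all genes, but they rest on 5 and 3 genes, and the excess was not tested. The direction turned for the proteasome genes and for the array as a whole: 24 of 53 (45.3%) were above 0 with a median of -0.03, beside 47.4% of all genes with a median of -0.01. ATPases had a median of -0.15 and non-ATPase subunits of -0.10, against 0.02 and 0.03 with DMSO 1.

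The 5 genes were psmb12, psme2, psmg3, psma6a and psmd4a. psmb12 stood at 7.71 to 7.77 in TCDD testes, against 7.29 to 7.44 in the 4 DMSO testes, a difference of 0.37 (0.17 to 0.58). psme2 stood at 8.79 to 9.16 in TCDD testes, against 8.32 to 8.75, a difference of 0.42 (0.13 to 0.71). psmg3 stood at 8.15 to 8.57 in TCDD testes, against 8.58 to 8.81, a difference of -0.34 (-0.60 to -0.09). These 3 had groups that did not overlap. psma6a differed by -0.37 (-0.70 to -0.04) and psmd4a by -0.33 (-0.64 to -0.01), and their groups overlapped. None passed adjustment over all genes, with limma adjusted p = 0.72 for each.

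Among the 53 genes, 4 had more than 1 probe with a single symbol. The probes of psmd2 gave differences of 0.13 and 0.14, those of psmc3 -0.11 and -0.27, and those of psmb4 -0.0031 and 0.19. psma6l had 3 probes: the brightest, used here, gave -0.04, and the dimmer ones gave -0.67 and -0.63, both past an unadjusted p under 0.05 in limma but with groups that overlapped. With the mean of its probes psma6l differed by -0.45 (-0.86 to -0.03). Its dimmer probes were highest in DMSO 5 (8.81 and 8.78), the lowest array of the probe used. Among the TCDD arrays the dimmer psmc3 probe was highest in TCDD 2 (7.33), the lowest array of the psmc3 probe used. Copies of the same subunit (psma6a, psma6b and psma6l, psmc1a and psmc1b, psmd4a and psmd4b, psmd11a and psmd11b) may be similar in sequence. Their sequences were not compared, and whether their probes read each other's RNA was not tested.

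Genes that work with the proteasome were counted in 5 lists. Of these, 54 of 69 genes were measured. In TCDD testes 36 were higher and 18 lower, beside 54.6% of all genes higher. The median difference was 0.10 (0.02 over all genes), or 0.02 without DMSO 1 (-0.01 over all genes). Of the 54 genes 0 passed even an unadjusted p under 0.05 (2.48% of all genes). Proteasome partners and deubiquitinases were higher for 7 of 10 with a median of 0.12, and without DMSO 1 for 5 of 10 with a median of -0.0019. The 3 with the smallest p were ecpas, which binds and disassembles the particle under stress, zfand5b and the ubiquitin ligase ube3c. Their differences were 0.13, 0.16 and 0.13. Without DMSO 1 these 3 differed by 0.10, 0.08 and 0.06. Shuttle factors and p97 cofactors, which carry substrates to the proteasome, were higher for 8 of 9 with a median of 0.10, but without DMSO 1 for 3 of 9 with a median of -0.07. The smallest p belonged to nploc4, ubqln4 and rad23b. Their differences were 0.20, 0.11 and 0.15, or 0.11, 0.12 and 0.04 without DMSO 1. Of the 9 genes 8 were lowest in DMSO 1, beside 28.8% of all genes.

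The transcription control list was higher for 7 of 12 with a median of 0.11, and without DMSO 1 for 6 of 12 with a median of 0.04. In mammals the factor NRF1, encoded by nfe2l1, is cut free by the protease DDI2 and raises proteasome genes when the proteasome is inhibited. nfe2l1b differed by 0.36 (-0.22 to 0.95), ddi2 by 0.33 (-0.12 to 0.79) and the small Maf gene mafgb by -0.14. Without DMSO 1, where nfe2l1b read 8.99, its difference was 0.10, and those of ddi2 and mafgb were 0.19 and -0.17. The list of ubiquitin and of enzymes that activate or conjugate it or related modifiers was higher for 6 of 8 with a median of 0.05. Without DMSO 1 it was higher for 3 of 8 with a median of -0.03. Its smallest p belonged to uba2, uba7 and uba3. Their differences were 0.22, 0.16 and 0.11, and without DMSO 1 they were 0.02, 0.31 and -0.11. Interferon and antigen processing genes were higher for 8 of 15 with a median of 0.07, and without DMSO 1 for 11 of 15 with a median of 0.13. The 3 with the smallest p were the kinase gene jak1, b2m, the light chain of class I molecules, and the transcription factor gene irf1b. Their differences were 0.33 (-0.02 to 0.68), 0.34 (-0.04 to 0.73) and 0.43. Without DMSO 1, 4 of the 54 had an unadjusted p under 0.05 beside 6.65% of all genes: sem1 (-0.32), mafk (0.35), irf1b (0.75) and b2m (0.45).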

How the data were processed

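The authors deposited 1 table of log2 values for 75212 probes on 10 arrays. Their range of 1.25 to 14.6 fits a log2 scale. How the authors normalized the values, corrected for background and took the logarithm was not given in the sources used here. Each column was mapped to its sample by label. Of the probes, 20806 had a single symbol in the platform annotation, 855 several and 53551 none, and 20323 of the first matched RefSeq (assembly GRCz12tu) by Entrez identifier. All 53 proteasome genes matched. Where a gene had several probes, the brightest on average was kept.

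The TCDD and DMSO arrays were fitted in limma (version 3.58.1, R 4.3.3) with a linear model on group and empirical Bayes variances, with p-values adjusted by Benjamini-Hochberg over all 19260 genes. The model was also run on simulated data with independent noise for each gene. There it called 65.8% of 2-fold and 92.4% of 4-fold changes, and 5.72% of its calls were false. The simulated data held no outlying array such as DMSO 1, so these shares need not hold for the arrays here. Genes called had an adjusted p under 0.05. The p-values set the difference between the groups against the spread between samples within the groups, over these 10 samples. The replicate numbers are shared by both groups, but same-numbered arrays did not deviate together (correlations of -0.58, -0.21, -0.03, -0.04 and 0.29), so the arrays were treated as unpaired.

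The members, role groups, marker lists and partner lists were chosen with earlier results of these data known. Genes described with all values were, in each role group, the 2 with the smallest p and the 1 with the widest SD, plus a fixed set of catalytic, immune-type, testis-type, activator and inhibitor genes. From each partner list the 3 with the smallest p were named. Genes singled out without DMSO 1 were chosen after their values were seen. Alternatives were the replicate number as a block, array weights, a robust variance trend, a plain equal-variance test, averaging a gene's probes, leaving out dim probes, quantile normalization, centring on array medians and leaving out each array. Leaving out DMSO 1 and TCDD 2 together was chosen after seeing the data. No sequences are given, since the reference tables used here hold none.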

Additional observations from a re-analysis of the deposited data

Results flagged for a closer look

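Each proteasome gene was examined in each group for a highest or lowest array that stood away from the other 4, by Dixon's test. Of 106 groups examined 7 stood out. Chance gives about 1 in 20 for independent groups, but these groups share the same 10 arrays. The share over all genes was not computed, so the count is no result about proteasome genes. The lowest arrays were DMSO 1 for psma4 at 9.61 (others 10.10 to 10.24), DMSO 1 for psma8 at 9.67 (others 10.05 to 10.21) and DMSO 1 for psmb7 at 8.35 (others 9.39 to 9.61). TCDD 2 was lowest for psmg1 at 9.59 (others 10.19 to 10.29). The highest arrays were DMSO 1 for psmb11a at 5.79 (others 5.33 to 5.39), DMSO 1 for psmb12 at 8.12 (others 7.29 to 7.44) and TCDD 1 for psmd11a at 8.91 (others 8.31 to 8.43). DMSO 1 thus accounted for 5 of the 7, with 3 low and 2 high values. Over all genes, too, DMSO 1 was often at the ends: it was the lowest array for 28.8% and the highest for 22.9%.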

How the results depend on the processing

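None of 19 alternatives called a proteasome gene (adjusted p under 0.05), and the lowest adjusted p was 0.63. Over all genes 0 were called, and 1 when TCDD 2, or both DMSO 1 and TCDD 2, was left out, the potassium channel gene kcnh1a each time, so that leaving out 1 array gave 0 to 1. At an unadjusted p under 0.05 the count over all genes was 478, ran from 289 (without DMSO 2) to 1280 (without DMSO 1) when 1 array was left out, and was 1400 with array weights and 1190 without both DMSO 1 and TCDD 2. The count over the 53 proteasome genes was 0, and ran from 0 to 5 when 1 array was left out (5 without DMSO 1, 1 without TCDD 5). It was 3 with array weights, 1 with quantile normalization, 1 with the mean of all probes and 3 without both arrays. Beside the counts of 1, the count over all genes was 348 without TCDD 5, 463 with quantile normalization and 482 with the mean of all probes. Proteasome genes higher in TCDD testes numbered 32 of 53 (beside 54.6% of all genes), 25 with array weights (beside 51.4% of all genes) and 41 with median centring, which adds 0.04 to every gene's difference and puts 64.8% of all genes above 0. Leaving out 1 array gave 22 to 38. Fewer were higher than lower without TCDD 1 (22, beside 47.7% of all genes higher), DMSO 1 (24, beside 47.4%) or DMSO 2 (24, beside 51.7%). The count was 38 without TCDD 2 (beside 57.9%) and without DMSO 3 (beside 60.0%). With the replicate number as a block, 398 of all genes and 0 proteasome genes had an unadjusted p under 0.05. The numbers did not pair the arrays, and 0 of 5 TCDD arrays correlated best with their own number. When 1 array was left out the sign turned for 27 of 53 genes, and for 18 it turned without DMSO 1. The differences of these 18 over all arrays were at most 0.12 in size. The share of all genes that turned was not computed. Of the 12 genes run through the alternatives, 4 turned in at least 1. psmb8a, 1 of these, dropped out where dim probes were left out. psmb10 ran from -0.14 to 0.011 when 1 array was left out, psmb8a from -0.045 to 0.16, psmb9a from -0.059 to 0.18 and psmf1 from -0.087 to 0.046. psmb9a was -0.0049 with quantile normalization, and psmf1 was 0.030 with median centring, by the shift common to all genes. Otherwise the cause was not tested.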

Other observations

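The class I gene mhc1uba, near psmb8a in the RefSeq gene order, was high in some fish of both groups. It read 5.49, 4.42, 4.93, 9.59 and 4.28 in TCDD testes, against 5.23, 8.20, 5.05, 8.72 and 4.63 in DMSO testes. The 3 arrays with high values, TCDD 4, DMSO 2 and DMSO 4, were also the 3 highest for psmb8a, at 5.87 in TCDD 4, 5.47 in DMSO 2 and 5.69 in DMSO 4. The psmb8a probe was dim, at the 23.9 percentile of all probes, and its next value, 5.40 in TCDD 1, was close to that of DMSO 2. The neighbouring psmb13a, psmb12 and psmb9a did not share this order, with DMSO 1 highest for each. tap2a shared it in part: it was highest in DMSO 4 (8.91) and TCDD 4 (8.66), but read 8.13 in DMSO 2, below 8.59 in DMSO 5. This was noticed after the values were seen and was not tested.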
